A study of Mus musculus with 20 samples.

Results

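The genotype difference was examined across the genes of healthy liver, as TSP-1 null against wild type (WT) mice that were both fed a control chow. Members were the genes with a deposited value above 0.5 FPKM (fragments per kilobase of gene, scaled to the library's total of fragments assigned to genes) in at least 5 of the 10 control diet libraries. There were 12117 such genes among the 38924 in the table, of which 10935 were protein coding, and 10709 of them were above 0.5 FPKM in all 10 libraries. Another 10 members passed through the TSP-1 null libraries alone and 14 through the WT libraries alone, so that a difference in those genes is fixed by the filter. Thbs1, Gm3650, Pcna-ps2 and Gm14022 are among the former and mt-Tg, mt-Tr, n-R5s96, Gm26049 and Gm22573 among the latter, and their values are given as a description with no test, although 21 such genes are included in the counts of called genes. The 10 livers came from 5 C57BL/6J WT males (NDWT) and 5 males of the TSP-1 knockout strain on that background (NDKO), bought at 5 weeks of age, acclimated for 1 week and fed the control chow A08051501 for 12 weeks. In the same series, 5 WT (HFWT) and 5 TSP-1 null mice (HFKO) ate CDAHFD, a steatohepatitis diet rich in fat, deficient in choline, limited in methionine and with its protein replaced by defined L-amino acids. These mice are used only where a genotype effect is set beside its counterpart on that diet. The knockout is present in every cell of the body, and the null strain was bought separately from the WT strain, with no statement that littermates were compared. Tissue was whole liver from 1 lobe per mouse, which the series description and the study's methods name differently, and fewer cells of a type cannot be told apart from less RNA per cell in it.

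Thrombospondin-1 (TSP-1), encoded by Thbs1, is a large secreted glycoprotein that platelets and injured tissues release into the extracellular matrix. It binds the receptors CD47 and CD36, interacts with integrins and calreticulin, and can convert latent TGF-β to its active form. In healthy liver it is a low-abundance transcript, and most RNA comes from hepatocytes, whose programs for nitrogen disposal, fasting glucose production, lipid handling and protein secretion vary with feeding, time of day and position between the portal and central veins.

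Control diet libraries held 15984261 to 23276322 assigned fragments, and the members accounted for 99.6 to 99.7% of the total signal. Albumin (Alb), the leading secreted protein of hepatocytes, stood at 25052 ± 2899.9 FPKM in WT and 27881 ± 3397 in TSP-1 null livers, and the pancreatic acinar marker list summed to at most 0.431 FPKM in any library with 6 of its 8 genes (Cela3b, Ctrb1, Prss2, Pnlip, Amy2a5 and Try4) at 0 in all 10. The Y-linked gene Ddx3y was at 7.77 to 14.1 FPKM in every library and Xist at no more than 0.019 FPKM. Of 8 tested sex and substrain checks 1 was called (12.5%, against 5.25% of all members), Ide, which is lower and is described further on. After median of ratios scaling or quantile normalization 1 check was also called higher. Nnt, which distinguishes some C57BL/6 substrains, did not pass the test (11.1 ± 1.06 against 10.3 ± 0.666 FPKM, FDR 0.459). A principal component analysis of the 10 livers put 28.1% of the variance on a first component that separated the genotypes (scores of 50.9 ± 22.9 in TSP-1 null and -50.9 ± 25.6 in WT livers, SD, n = 5 each; two-sided exact permutation test, p = 0.00794, the smallest that this design allows, 0.0317 after adjustment over 4 components). The second component held 20.2% and did not separate them (exact permutation p = 0.476).

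The targeted gene went against its label on this diet. Thbs1 (ENSMUSG00000040152.8, GRCm38 chr2:118111876-118127133, plus strand) was at 0.17, 0.326, 0.268, 0.058 and 0.165 FPKM in the 5 WT livers and at 1, 1.5, 0.986, 1.9 and 1.13 FPKM in the 5 livers labelled TSP-1 null. All 5 libraries labelled null were therefore above all 5 WT libraries, on 112 to 207 fragments per library against 6 to 33. Thbs1 is a member through the libraries labelled null alone, so the log2 fold change (log2FC) of 2.28 is a description. On CDAHFD the gene was at 4.62 ± 1.22 FPKM in WT and 3.44 ± 0.547 FPKM in livers labelled TSP-1 null (log2FC -0.39, FDR 0.397). The table holds 1 value per gene, so fragments from exons inside the disrupted part of the gene cannot be separated from those outside it, and the value does not test the knockout of the protein. Directions below follow the labels, and the livers are called labelled TSP-1 null, or labelled null, for that reason.

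Across the 12117 genes, 636 (5.25%) were differentially expressed (DEGs: limma FDR under 0.05 over all members and an absolute log2FC above 0.58), of which 237 (1.96%) were higher and 399 (3.29%) lower in the livers labelled TSP-1 null. The median absolute log2FC of these DEGs was 0.83, and 217 of them exceeded 1, 96 upward and 121 downward. FPKM values are shares of a library, and the median log2FC over all members was -0.07; with libraries rescaled by median of ratios, which put that median at 0.00, the split became 305 higher and 286 lower, and with quantile normalization 297 and 272. Groups did not overlap in 1242 genes (10.3%), 311 higher (2.57%) and 931 lower (7.68%), against 537 and 543 after the rescaling, and 388 of the 636 DEGs were among the genes without overlap. Most DEGs (540) were protein coding. Antisense transcripts and long intergenic noncoding RNAs gave 27 DEGs of 163 and 19 of 170 tested, whereas pseudogenes gave 17 of 375.

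**Figure D1:**
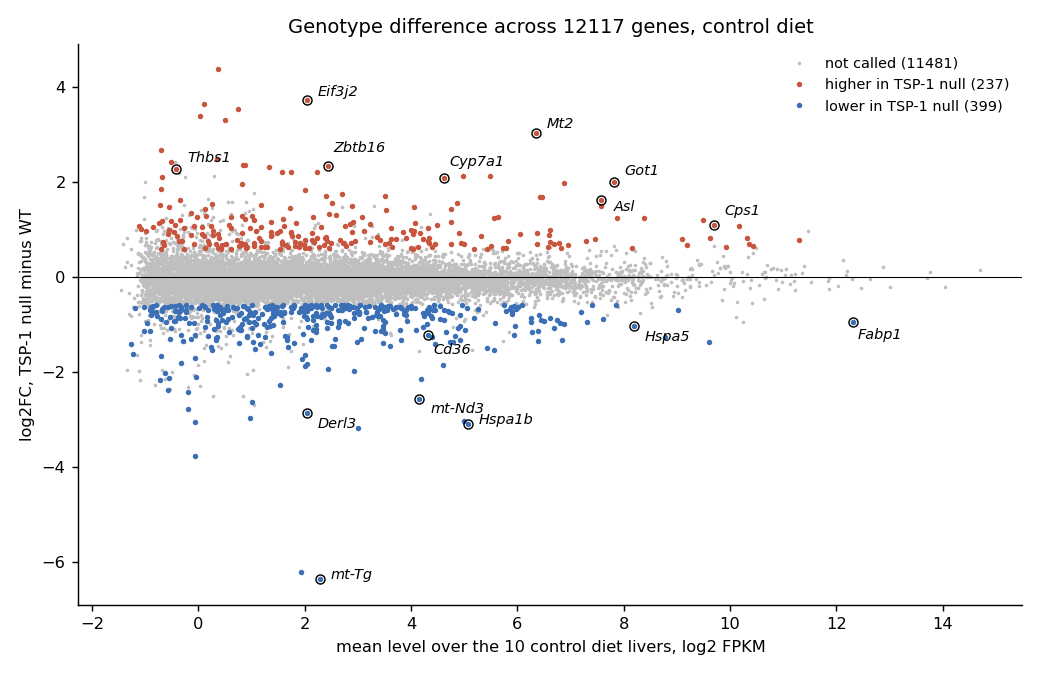
Log2FC between livers labelled TSP-1 null and WT on the control diet (vertical axis) against the mean level over the 10 livers in log2 FPKM (horizontal axis), 1 point per member gene. Red points are the 237 DEGs higher and blue points the 399 DEGs lower in TSP-1 null, grey points the other genes, and circled points genes described in the text, with mt-Tg at -6.36 the lowest, a value that depends on the pseudocount of 0.1 because the gene was at 0 in all 5 livers labelled null.

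Of the 11 tested genes in the list of thrombospondins and receptors, 4 were called (36.4%, against 5.25% of all members), of which 2 were higher (Thbs1 and Itgb3, the integrin β3 chain, log2FC 0.69) and 2 lower (Cd36 and Calr), with a median log2FC of -0.12. Thbs1 is counted here although its difference is fixed by the filter. Cd36, the fatty acid translocase and thrombospondin receptor, was at 35.7, 13.6, 43.1, 20.7 and 27 FPKM in WT and 10.4, 21.3, 11.9, 9.29 and 6.93 FPKM in livers labelled TSP-1 null. The second liver labelled null reached into the WT range, and the difference was -1.21 ± 0.27 SE, FDR 0.00523. Cd47, the other main receptor, passed the FDR threshold but not the fold threshold (13.4 ± 0.974 against 11.6 ± 0.848 FPKM, log2FC -0.21 ± 0.06 SE, FDR 0.0253). Thbs2 did not pass the test (0.608 ± 0.0546 against 0.62 ± 0.0903 FPKM, FDR 0.956), and neither did the growth factor gene Tgfb1 (4.43 ± 0.556 against 5.02 ± 0.848 FPKM, FDR 0.454). Tnf was below the level of the members, at 0.254 ± 0.0879 FPKM in WT and 0.138 ± 0.051 FPKM in livers labelled null. The glycolytic enzyme gene Gapdh was at 439 ± 47.1 and 434 ± 30.3 FPKM (FDR 0.944).

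The clearest group among the lower genes was the chaperone and quality control machinery of the endoplasmic reticulum (ER). These genes encode the proteins that fold, glycosylate and, when folding fails, remove secreted proteins, and many are induced together in the unfolded protein response. Of 24 tested genes in the list, 17 were lower DEGs and none a higher one (70.8% called, against 5.25% of all members), all 24 had a negative log2FC, and the median was -0.88 against -0.07 for all members. The summed level of the list was 1530 to 2861 FPKM in WT livers and 814 to 1263 FPKM in livers labelled TSP-1 null. Between 16 and 18 of the genes were called when any 1 library was left out.

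Many promoters of this list carry a known shared element, which is shown here because the genes moved together. The ER stress response element (ERSE) was searched on both strands as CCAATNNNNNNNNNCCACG in the 250 bases before and 50 bases after each annotated start (RefSeq, GRCm38.p6). It occurred at 37 of 27025 genes with a promoter sequence (0.137%) and at 9 of the 20 tested list members that had one (Calr, Canx, Creld2, Derl3, Dnajc3, Hsp90b1, Hspa5, Pdia6 and Syvn1), 8 of them lower DEGs and Dnajc3 not called. Among the 8467 tested genes with a promoter sequence it occurred at 15 (0.177%). The shorter ERSE-II (ATTGGNCCACG) occurred at 12 of the 27025 genes and 8 of the 8467 tested ones, and in the list at Dnajb11, a lower DEG, and Herpud1, which was not called. Neither of those held ERSE as well. A match says only that these letters are present, and the share of matches does not test the genotype difference. Stretches upstream of 4 lower DEGs follow, 5′ to 3′ on the gene's strand, with the match in capitals (Creld2, Derl3 and Calr carry it in reverse complement).
Hspa5 promoter, chr2:34771985-34772083, plus strand: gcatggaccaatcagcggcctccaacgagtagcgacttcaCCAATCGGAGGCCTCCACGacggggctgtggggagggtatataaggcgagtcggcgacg
Creld2 promoter, chr15:88819480-88819578, plus strand: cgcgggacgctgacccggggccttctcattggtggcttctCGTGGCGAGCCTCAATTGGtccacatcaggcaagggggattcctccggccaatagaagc
Derl3 promoter, chr10:75893202-75893300, plus strand: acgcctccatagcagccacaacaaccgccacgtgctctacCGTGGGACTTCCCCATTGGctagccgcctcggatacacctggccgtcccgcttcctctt
Calr promoter, chr8:84847035-84847133, minus strand: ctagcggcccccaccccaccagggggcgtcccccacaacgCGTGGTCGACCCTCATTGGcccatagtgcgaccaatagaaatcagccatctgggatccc

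Hspa5, the abundant ER Hsp70 that senses unfolded proteins, was at 273, 358, 655, 339.9 and 347 FPKM in WT and 119, 238, 178, 169.5 and 244 FPKM in livers labelled TSP-1 null. The groups did not overlap, and NDWT3 stood far above the other WT livers. The log2FC was -1.04 ± 0.24 SE, FDR 0.00634. Calr (calreticulin, the lectin chaperone that also binds TSP-1) fell from 216, 279, 326, 216 and 230.3 FPKM to 97.7, 155, 129, 134 and 178 FPKM, without overlap, a log2FC of -0.88 ± 0.15 SE, FDR 0.00112. Its partner disulfide isomerase Pdia3, whose gene starts 3.30 Mb from that of Thbs1, had a log2FC of -0.90 ± 0.14 SE, FDR 0.000361, and Pdia4, another isomerase, -1.06 ± 0.19 SE, FDR 0.00141. Dnajb9, an Hspa5 co-chaperone, was at 33.7, 36.3, 63.7, 48.6 and 41.7 FPKM in WT and at 14.7, 22.8, 19.8, 22.9 and 20.8 FPKM in livers labelled null. These values did not overlap either (log2FC -1.12 ± 0.19 SE, FDR 0.000871). Sel1l, the scaffold of the ER-associated degradation complex, changed by -0.88 ± 0.16 SE, FDR 0.00152. Larger differences were found in secreted or low-abundance members: Derl3, a channel component of the same degradation route, was at 2.77, 5.56, 23, 3.31 and 2.66 FPKM in WT and 0.109, 1.78, 0.641, 0.421 and 1.04 FPKM in livers labelled null, with NDWT3 far above the other WT livers. Its log2FC was -2.86 ± 0.62 SE, FDR 0.00425, and without NDWT3 it was -2.32 (FDR 0.0121).

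Sdf2l1, Creld2, Manf and Hyou1, ER stress proteins of the lumen, were chosen after their values were seen, as was Hspa5. They had log2FC values of -1.85, -1.50, -1.32 and -1.25, each without overlap between the groups and with FDR values of 0.00233, 0.00429, 0.00285 and 0.0032. Xbp1, a transcription factor of the pathway, passed the FDR but not the fold threshold (log2FC -0.52 ± 0.14 SE, FDR 0.0155) although its groups did not overlap. On CDAHFD the same 24 genes had a median log2FC of -0.26 and 1 lower DEG, beside -0.09 over all members on that diet. The interaction passed both thresholds for none of the ER genes named here: of Hspa5 it was 0.69 ± 0.34 (SE), FDR 0.324.

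Heat shock genes made a second lower group. They encode chaperones under control of heat shock factor, which is active in heat, proteotoxic stress and handling stress. Of 20 tested genes, 11 were lower DEGs and none higher (55% called, against 5.25% of all members), the median log2FC was -0.61, and the list summed to 1559 to 1918 FPKM in WT and 839 to 1448 FPKM in livers labelled null. The lower DEGs numbered 8 after median of ratios scaling and 7 after quantile normalization. Hspa1b, an inducible Hsp70, was at 32.8, 39.3, 57.6, 88.4 and 82.1 FPKM in WT and 7.76, 6.67, 11.8, 8.39 and 2.1 FPKM in livers labelled TSP-1 null. Every liver labelled null was below every WT liver, a log2FC of -3.10 ± 0.38 SE, FDR 4.84e-05. Its neighbour Hspa1a was at 1.19, 2.39, 1.75, 6.82 and 5.82 FPKM in WT and at 0.623, 0.566, 0.326, 0.508 and 0.117 FPKM in livers labelled null, also without overlap (log2FC -2.63 ± 0.45 SE, FDR 0.000917). The 2 genes share 67.6% of the 31-base words of Hspa1b, so the split of fragments between them is uncertain. Chordc1, an Hsp90 co-chaperone, fell from 25 ± 3.55 to 12.3 ± 2.81 FPKM (log2FC -1.04 ± 0.14 SE, FDR 9.13e-05), and Dnaja1, an Hsp40, from 38.6 ± 5.46 to 22.3 ± 3.13 FPKM (log2FC -0.79 ± 0.10 SE, FDR 6.98e-05). Hsph1 (Hsp110) and Hsp90aa1 (inducible Hsp90), both chosen after their values were seen, had log2FC values of -1.32 and -0.95 (FDR 0.00182 and 0.00196). The constitutive Hsp70 gene Hspa8 did not pass the test, at 438, 375, 449, 458 and 479 FPKM in WT and 401, 411, 398, 457 and 191 FPKM in livers labelled null, where NDKO5 lay far below the others. That liver was also the lowest of the 10 in Hspa1b, Hsph1, Chordc1 and Dnaja1.

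The heat shock element, searched as GAANNTTCNNGAA and TTCNNGAANNTTC on both strands, occurred at 179 of the 27025 genes (0.662%) and at 4 of the 16 list members with a promoter sequence, the lower DEGs Chordc1 and Hsph1 and the uncalled Hspd1 and Hspe1. Among the 8467 tested genes with a promoter sequence it occurred at 54 (0.638%). On CDAHFD the 20 genes of the list had a median log2FC of -0.10 with no DEG, and the interaction passed for Hspa1b (3.27 ± 0.54, FDR 0.00797), Hspa1a (2.99 ± 0.64, FDR 0.026) and Dnaja1 (0.70 ± 0.15, FDR 0.0257).

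**Figure D2:**
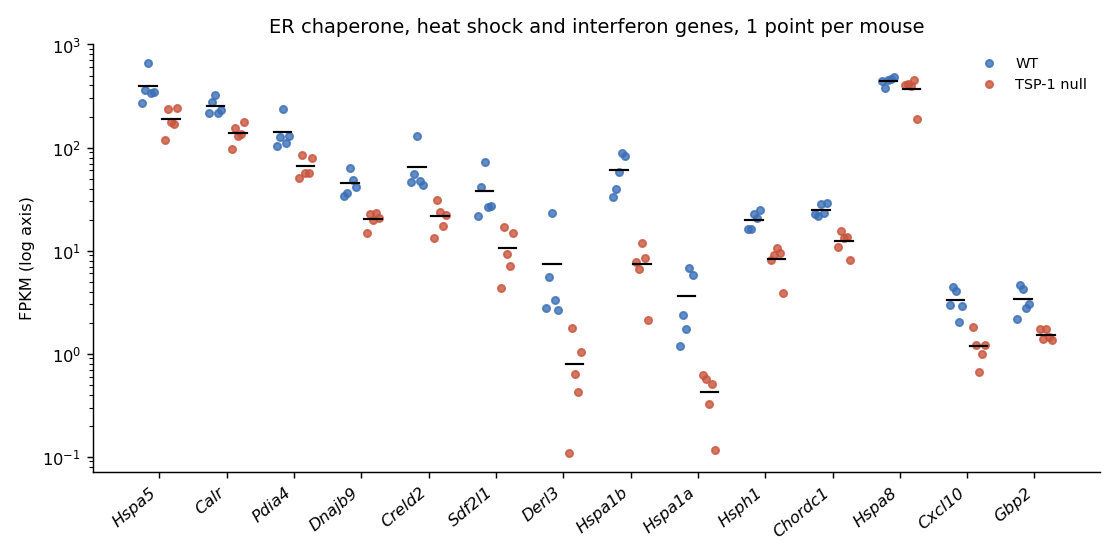
FPKM on a log axis (vertical) for 14 genes (horizontal), 1 point per liver, blue for the 5 WT and red for the 5 libraries labelled TSP-1 null, with black lines at the group means. From Hspa5 to Chordc1 the red points lie below the blue ones, while for Hspa8 they overlap; Cxcl10 and Gbp2, described further on, do not overlap.

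Several genes for nitrogen disposal were higher in the livers labelled TSP-1 null. The urea cycle turns ammonia from amino acid breakdown into urea and runs mainly in hepatocytes near the portal vein. Of its 8 tested genes, 4 were higher DEGs and none lower (50% called, against 5.25% of all members; median log2FC 0.67), and the summed level was 1826 to 2889 FPKM in WT and 3429 to 5211 FPKM in livers labelled null. Cps1, which commits ammonia to the cycle, was at 391, 359, 479, 830.1 and 636 FPKM in WT and 1335, 853, 902, 1315 and 1192 FPKM in livers labelled null. The lowest liver labelled null was just above the highest WT liver, and the log2FC was 1.10 ± 0.18 SE, FDR 0.000769. Ass1, which condenses citrulline with aspartate, rose from 743, 699, 551, 943 and 768 FPKM to 1839.7, 1435, 1227, 1447 and 1852 FPKM without overlap (log2FC 1.08 ± 0.14 SE, FDR 6.98e-05). Asl, the next enzyme, showed the largest change of the list, from 86.8, 62, 79.6, 130.2 and 107 FPKM to 381, 224, 219, 325 and 278 FPKM (log2FC 1.63 ± 0.18 SE, FDR 1.94e-05). Arg1, which releases urea, rose from 563 ± 86.8 to 1008 ± 201 FPKM (log2FC 0.83 ± 0.16 SE, FDR 0.00174). The mitochondrial enzyme gene Otc did not pass the test, at 62 ± 3.88 and 59.6 ± 6.85 FPKM (FDR 0.764), and neither did Nags, whose product makes the activator of Cps1 (log2FC 0.29, FDR 0.0845).

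Of 50 tested genes of amino acid catabolism, 15 were higher DEGs and none lower (30% called, against 5.25% of all members). The other genes did not pass, 12 of the 50 had a negative log2FC, the median was 0.30, and between 13 and 17 were called when single libraries were left out. Got1, the cytosolic aspartate aminotransferase, was at 81.2, 57.6, 75.9, 152 and 91.8 FPKM in WT and 469, 241, 327, 436 and 320.3 FPKM in livers labelled null, a difference without overlap and of 2.01 ± 0.24 SE, FDR 2.97e-05 on the log2 scale. Sds, the serine dehydratase of gluconeogenesis from serine, was at 47.2, 31.9, 41.5, 49.4 and 35.2 FPKM and 200.3, 88.4, 135, 115 and 135 FPKM. All livers labelled null were again above all WT livers (log2FC 1.68 ± 0.27 SE, FDR 0.000491). Its homologue Sdsl and the histidine ammonia-lyase gene Hal rose by 0.90 (FDR 0.000276) and 0.98 (FDR 0.00237). Hpd, of tyrosine breakdown, went from 1077 ± 150.3 to 1683 ± 124 FPKM (log2FC 0.65 ± 0.10 SE, FDR 0.000529).

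Abundant members of the list belong to methionine metabolism, in which S-adenosylmethionine is made, used for methylation and recycled. Mat1a, the liver form of methionine adenosyltransferase, was at 1829, 1311, 1845, 2349 and 2049 FPKM in WT and 3627, 2855, 2865, 3464 and 2977 FPKM in livers labelled null. Gnmt, the glycine methyltransferase that uses up S-adenosylmethionine, went from 993 ± 134 to 1616 ± 233 FPKM, and Ahcy, which hydrolyses the product, from 758 ± 77.2 to 1183 ± 124 FPKM. None of the 3 overlapped between groups, and their log2FC values were 0.77, 0.70 and 0.64 (FDR 0.0022, 0.0011 and 0.000162). On CDAHFD the amino acid list had a median log2FC of 0.08 with 1 higher and 1 lower DEG, and the urea cycle list 0.27 with none. The interaction passed for Asl (-1.28 ± 0.26, FDR 0.0214), Got1 (-1.77 ± 0.33, FDR 0.0146) and Hpd (-0.61 ± 0.15, FDR 0.0477).

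Markers of periportal hepatocytes overlap with these lists. Of 10 tested markers, 70% were called, against 5.25% of all members, namely 7 higher DEGs (Gls2, Pck1, Arg1, Sdsl, Hal, Ass1 and Sds), all of them enzymes of nitrogen or glucose metabolism that the other lists also hold, and the list summed to 2694 to 3576 FPKM in WT and 4666 to 5998 FPKM in livers labelled null. The periportal marker Cyp2f2, which is in none of the metabolic lists, was at 421, 427, 400.4, 364 and 335 FPKM in WT and 429.8, 329.7, 431, 350.1 and 364 FPKM in livers labelled null (FDR 0.887). Of 9 tested pericentral markers 1 was lower (11.1%), Slc1a2, which lies near Thbs1 on chromosome 2, and the central vein marker Glul was at 336 ± 36.3 and 320.2 ± 32 FPKM (FDR 0.768).

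Genes of the fasting response were partly higher. Of 20 tested genes, 6 were higher (Igfbp1, Lpin1, Ppargc1a, Pck1, Tat and Pfkfb1) and 1 lower (Pklr), with 35% called, against 5.25% of all members, and a median log2FC of 0.39. Igfbp1, an insulin-repressed secreted binding protein, was at 67.2, 42, 33, 63.6 and 20.4 FPKM in WT and 148, 116, 192, 395 and 90.3 FPKM in livers labelled null, without overlap (log2FC 1.98 ± 0.42 SE, FDR 0.00402). Pck1, the key enzyme of glucose production, was at 1356, 733, 1005, 1088 and 569 FPKM in WT and 1637, 1505, 1587, 1648 and 1659 FPKM in livers labelled null. WT livers were spread far more widely than livers labelled null, the groups did not overlap, and the difference was 0.82 ± 0.19 SE, FDR 0.00701. Ppargc1a, the coactivator that drives Pck1 in fasting, rose from 1.16 ± 0.504 to 2.84 ± 0.68 FPKM (log2FC 1.28 ± 0.24 SE, FDR 0.00182) and Lpin1, a phosphatidate phosphatase and coactivator, from 3.32 ± 0.9 to 8.64 ± 3.4 FPKM (log2FC 1.30 ± 0.21 SE, FDR 0.00057). The glycolytic Pklr fell by 0.82 on the log2 scale, a call that was lost without any 1 of NDWT1, NDWT2, NDWT3, NDKO1, NDKO3 or NDKO4 (FDR 0.0639 to 0.0796). G6pc and Fbp1, the other gluconeogenic enzymes, did not pass (log2FC 0.66 and 0.28, FDR 0.153 and 0.0901), and for Irs2 the log2FC was 0.52 (FDR 0.2).

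**Figure D3:**
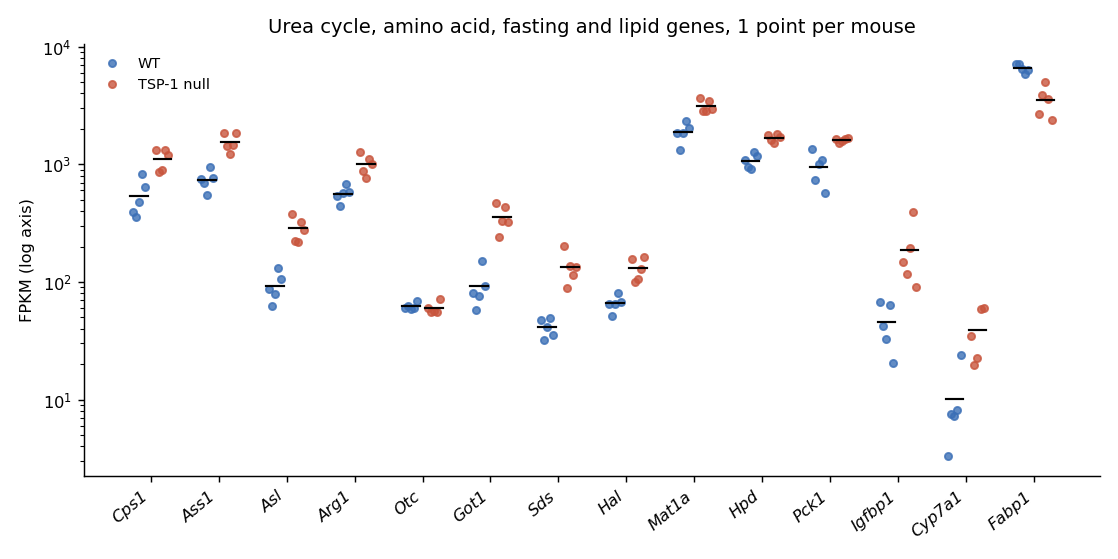
FPKM on a log axis (vertical) for 14 metabolic genes (horizontal), 1 point per liver, blue for the 5 WT and red for the 5 libraries labelled TSP-1 null, with black lines at the group means. Red points lie above blue ones for Cps1, Ass1, Asl, Arg1 and Got1 to Igfbp1, overlap them for Otc, and lie below them for Fabp1.

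Fatty acid oxidation as a list was not called in either direction. None of its 24 tested genes was a DEG (median log2FC -0.19, and -0.11 after median of ratios scaling). Of the 24, 21 had a negative log2FC and 4 were lower without overlap between the groups, against 7.68% of all members. Nor did the transport enzyme gene Cpt1a pass (254 ± 28.7 against 302 ± 39.8 FPKM, FDR 0.161). Of 35 tested targets of PPARα, the nuclear receptor for fatty acids, 4 were lower (Vnn1, Fabp1, Aldh3a2 and Pex11a) and 1 higher (Cyp4a32), which is 14.3% against 5.25% of all members, with a median log2FC of -0.25. Fabp1, the liver fatty acid binding protein and the most abundant DEG, was at 7107, 7177, 6505, 5806 and 6392 FPKM in WT and 2674, 3849.9, 5036, 3604 and 2403 FPKM in livers labelled null. No liver labelled null reached the lowest WT liver (log2FC -0.96 ± 0.17 SE, FDR 0.000966). Vnn1, a pantetheinase, went from 118 ± 25.1 to 49.2 ± 21.2 FPKM (log2FC -1.35 ± 0.24 SE, FDR 0.00139), the aldehyde dehydrogenase gene Aldh3a2 from 203 ± 26.7 to 112 ± 48.7 FPKM (log2FC -0.96 ± 0.22 SE, FDR 0.00718), and the peroxisomal Pex11a from 154 ± 30.3 to 82.5 ± 35.6 FPKM (log2FC -0.99 ± 0.23 SE, FDR 0.00758). In these 3 genes NDKO2 and NDKO3 were the highest livers labelled null and the other 3 the lowest. Without NDKO3 the lower targets numbered 7. The classical targets Cyp4a10 and Cyp4a14 did not pass (log2FC 0.19 and 0.17, SE 0.34 and 0.48), whereas the related Cyp4a32 rose by 0.87 (FDR 0.0036). Ppara itself passed the FDR but not the fold threshold (76.6 ± 12 against 57.4 ± 5.63 FPKM, log2FC -0.41 ± 0.14 SE, FDR 0.0475).

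Of 19 tested genes of bile acid synthesis and transport 3 were higher (15.8%, against 5.25% of all members) and none lower. Cyp7a1, the rate-limiting enzyme of bile acid synthesis, was at 3.28, 7.59, 7.28, 8.22 and 24.1 FPKM in WT and 34.7, 19.5, 22.4, 58.7 and 59.7 FPKM in livers labelled null. NDWT5 lay among the livers labelled null and the other WT livers below them (log2FC 2.09 ± 0.46 SE, FDR 0.00479). Cyp8b1, which sets the share of cholic acid, rose from 458 ± 98.2 to 713 ± 53.3 FPKM (log2FC 0.67 ± 0.20 SE, FDR 0.0293; not called without NDWT2, NDKO1, NDKO3 or NDKO4, FDR 0.0566 to 0.0774), and the transporter Slco1a4 from 6.36 ± 2.47 to 16.7 ± 6.07 FPKM (log2FC 1.40 ± 0.32 SE, FDR 0.00551). In cholesterol synthesis 1 of 25 genes was called (4.00%, below the share of all members), Stard4 (log2FC -0.73 ± 0.22 SE, FDR 0.0284), which was not called without NDWT2, NDWT3, NDKO1 or NDKO3 (FDR 0.0618 to 0.0747). Hmgcs1 had a log2FC of -0.70 and an FDR of 0.0785. Car3, the abundant carbonic anhydrase of liver and muscle, fell from 1163, 1466, 1154, 684 and 1097 FPKM to 239.9, 609, 496, 287 and 622 FPKM, without overlap (log2FC -1.37 ± 0.24 SE, FDR 0.001).

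Interferon-inducible genes were lower in part. Of 34 tested genes 8 were lower DEGs and none higher (23.5% called, against 5.25% of all members), 33 had a negative log2FC and the median was -0.34, while the summed levels of the list overlapped (465 to 699 FPKM in WT, 398 to 494 FPKM in livers labelled null). Cxcl10, a chemokine for T cells, was at 3, 4.42, 4.07, 2.03 and 2.9 FPKM in WT and 1.82, 1.22, 0.669, 0.988 and 1.2 FPKM in livers labelled null. The 2 groups did not overlap (log2FC -1.42 ± 0.24 SE, FDR 0.000871). The guanylate-binding proteins Gbp6 and Gbp2, GTPases of cell-autonomous defence, fell from 5.16 ± 2.24 to 1.78 ± 0.215 FPKM (log2FC -1.38 ± 0.25 SE, FDR 0.00143) and from 3.38 ± 1.03 to 1.53 ± 0.191 FPKM (log2FC -1.05 ± 0.24 SE, FDR 0.00587). Gbp7 and Irgm2, GTPases of the same kind, had log2FC values of -0.74 and -0.70 (FDR 0.00396 and 0.0023). Ifit1, a gene induced mainly by type I interferon, did not pass (log2FC -0.51, FDR 0.103). On CDAHFD the median of the list was -0.42 with no DEG.

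An element related to the interferon-stimulated response element, GAAANNGAAA on either strand, occurred at 1079 of 27025 genes (3.99%) and at 17 of 24 list members with a promoter sequence, 5 of them among the 6 lower DEGs with one. Among the 8467 tested genes with a promoter sequence it occurred at 318 (3.76%). The copies in Cxcl10 and in Gbp2 (reverse complement) are in capitals below, as examples from the promoters of lower DEGs.
Cxcl10 promoter, chr5:92349053-92349139, minus strand: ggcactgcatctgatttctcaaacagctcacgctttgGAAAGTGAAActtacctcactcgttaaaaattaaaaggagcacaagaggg
Gbp2 promoter, chr3:142620564-142620653, plus strand: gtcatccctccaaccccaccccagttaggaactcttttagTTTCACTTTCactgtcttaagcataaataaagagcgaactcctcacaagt

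Of 22 tested antigen presentation genes, 5 were lower (Ciita, Tap1, Psmb9, H2-Eb1 and H2-Aa) and none higher, which is 22.7% against 5.25% of all members. Ciita, the master regulator of class II genes, was at 1.26, 1.73, 1.56, 0.732 and 1.47 FPKM in WT and 0.461, 0.402, 0.448, 0.512 and 0.518 FPKM in livers labelled null, the lowest WT value being that of NDWT4 (log2FC -1.31 ± 0.21 SE, FDR 0.000617). Tap1, the peptide transporter, and Psmb9, an immunoproteasome subunit whose gene overlaps Tap1 on the opposite strand, changed by -0.74 and -0.82 (FDR 0.0073 and 0.0165). For the class II chain H2-Eb1 (47.5, 76.2, 53.7, 19.3 and 42.8 FPKM in WT, 26.4, 20.6, 26, 29.9 and 19.2 FPKM in livers labelled null) NDWT4 lay with the livers labelled null. Its call (log2FC -0.86 ± 0.27 SE, FDR 0.036) and that of H2-Aa (-0.71 ± 0.23 SE, FDR 0.0436) were lost on leaving out any 1 library other than NDWT4 or NDKO4 (FDR 0.0543 to 0.115). The lower DEGs of the list numbered between 3 and 9 when single libraries were left out, with 9 without NDWT4.

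Of 14 tested TGF-β responsive genes 6 were lower DEGs and 1 a higher one (50% called, against 5.25% of all members; median log2FC -0.39), 4 had a positive log2FC, and none of 29 tested extracellular matrix genes was a DEG (median 0.18), among them Col1a1 (1.28 ± 0.457 against 1.13 ± 0.431 FPKM, FDR 0.696) and Col3a1 (3.14 ± 0.723 against 2.76 ± 0.271 FPKM, FDR 0.683). Of the 29 matrix genes 20 had a positive log2FC and 3 were higher without overlap between the groups, against 2.57% of all members. Cyr61, a matricellular protein, fell from 8.48 ± 1.25 to 3.17 ± 1.25 FPKM (log2FC -1.46 ± 0.20 SE, FDR 0.000174) and Id3, an inhibitor of basic helix-loop-helix factors that BMP signals also induce, from 40.3 ± 19.7 to 15.1 ± 5.18 FPKM (log2FC -1.36 ± 0.26 SE, FDR 0.00174). Id1 and Acta2 (smooth muscle actin) had log2FC values of -1.07 and -1.13 (FDR 0.012 and 0.0137). Ctgf was the one higher gene, at 1.05, 1.09, 1.85, 0.835 and 0.315 FPKM in WT and 2.13, 2.65, 2.69, 1.14 and 1.62 FPKM in livers labelled null, with overlap. Its log2FC was 1.03 ± 0.32 SE, FDR 0.0353, and without NDWT4, NDWT5, NDKO1, NDKO2 or NDKO3 it was not called (FDR 0.0595 to 0.0969).

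Proliferation genes were near the detection filter, and only 29 of 56 were tested. Of these 8 were lower, among them Pcna from the neighbourhood of Thbs1, and none higher (27.6% called, against 5.25% of all members; median log2FC -0.29), a count that became 5 with either rescaling and 0 with a pseudocount of 1. Ccnd2, a G1 cyclin, went from 2.64 ± 0.326 to 1.55 ± 0.272 FPKM (log2FC -0.74 ± 0.13 SE, FDR 0.00088), Mcm2, a subunit of the replicative helicase, from 1 ± 0.237 to 0.479 ± 0.094 FPKM (log2FC -0.92 ± 0.18 SE, FDR 0.00217), and E2f1 from 0.983 ± 0.144 to 0.566 ± 0.156 FPKM (log2FC -0.72 ± 0.17 SE, FDR 0.00865). Cdkn1a, the p21 cell cycle inhibitor, was higher in livers labelled null (3.9, 2.4, 4.73, 2.49 and 1.06 FPKM in WT, 8.85, 14.8, 8.04, 6.36 and 4.32 FPKM in livers labelled null). NDKO5 lay within the WT range, the log2FC was 1.55 ± 0.34 SE, FDR 0.00503, and the interaction with diet was -2.06 ± 0.48 (FDR 0.0439). Gdf15, a stress-induced hormone, fell from 6.3 ± 2.45 to 1.76 ± 1.1 FPKM (log2FC -1.87 ± 0.36 SE, FDR 0.00191).

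**Figure D4:**
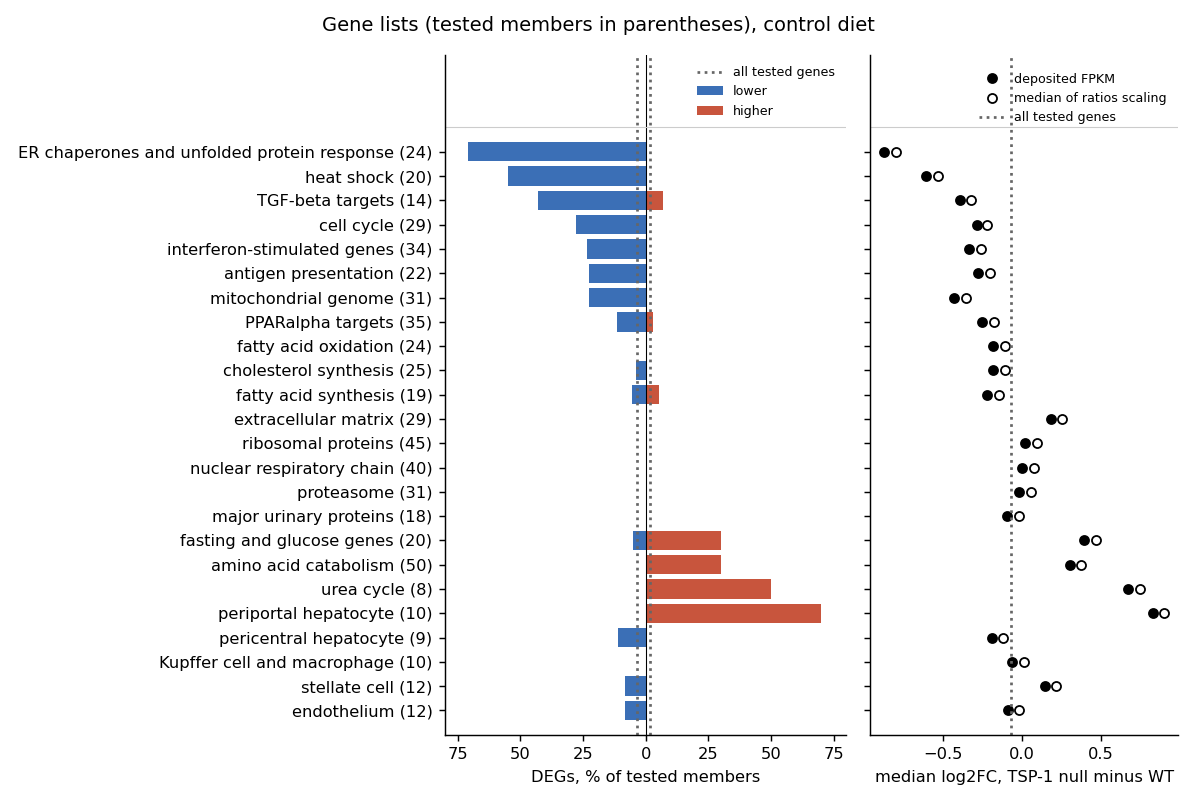
Left, the share of tested members of each gene list that were DEGs lower (blue, to the left) or higher (red, to the right) in livers labelled TSP-1 null, with dotted lines at the shares over all members (3.29 and 1.96%); right, the median log2FC of each list with the deposited FPKM (filled) and after median of ratios scaling (open), with a dotted line at the median of all members. ER chaperones (17 of 24 lower) and periportal markers (7 of 10 higher) are at the extremes, and ribosomal protein, respiratory chain and proteasome lists have no DEG.

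Several lists had no call or 1 call. None of 45 ribosomal protein genes, 40 nuclear respiratory chain genes, 31 proteasome genes or 18 major urinary protein genes was a DEG, with median log2FC values of 0.02, 0.00, -0.02 and -0.09. Markers of Kupffer cells and macrophages (10 tested, none called, summed level 227 to 308 FPKM in WT and 199 to 347 FPKM in livers labelled null), such as Clec4f (67.5 ± 7.43 against 69.3 ± 13.9 FPKM), and of T and NK cells (4 tested, none called) did not pass the test. Stellate cell markers (12 tested, 1 lower, Acta2) summed to 124 to 170 and 169 to 191 FPKM, and endothelial markers (12 tested, 1 lower, Lyve1) to 105 to 115 and 83.9 to 111 FPKM, with Stab2 at 11.6 ± 0.998 and 11.1 ± 1.6 FPKM. Of the 12 stellate markers 9 had a positive log2FC (median 0.14) and 2 were higher without overlap, against 2.57% of all members. The share called was 8.33% in the stellate and in the endothelial list, against 5.25% of all members. Among B cell markers 1 of 5 was higher (20%, against 5.25% of all members), Cd79b (log2FC 1.10 ± 0.37 SE, FDR 0.0468). All 5 had a positive log2FC, with a median of 0.43. Lyve1 was not called without any 1 of 8 libraries (all but NDWT4 and NDKO2, FDR 0.0552 to 0.135) and Cd79b without any 1 of 7 (all but NDWT1, NDKO3 and NDKO4, FDR 0.06 to 0.135). The part of these cell types in the results was not tested.

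Mt2 was among the genes that rose most. It encodes a metallothionein, a small protein that binds zinc and is induced by metals, glucocorticoids and fasting. It was at 14.6, 5.39, 19.3, 20.4 and 12.6 FPKM in WT and 327, 39.7, 44.8, 125 and 205 FPKM in livers labelled null, so that each liver labelled null was above each WT liver but the livers labelled null themselves spanned 39.7 to 327 FPKM. Its log2FC was 3.03 ± 0.49 SE, FDR 0.000529. The related Mt1 had a log2FC of 1.5 ± 0.50 SE, FDR 0.0468 with overlapping groups and was not called without NDWT1, NDWT2, NDWT5, NDKO1, NDKO4 or NDKO5 (FDR 0.0741 to 0.133). Zbtb16, a zinc finger repressor that glucocorticoids induce, was at 2.47, 2.2, 1.33, 1.07 and 1.08 FPKM in WT and 11.8, 12.5, 12.7, 5.54 and 3.43 FPKM in livers labelled null, without overlap (log2FC 2.34 ± 0.42 SE, FDR 0.00129). E030018B13Rik, a gene that overlaps Klf13 on the opposite strand, rose from 0.496 ± 0.26 to 3.08 ± 1.71 FPKM (log2FC 2.35 ± 0.40 SE, FDR 0.000802). The interaction with diet passed for Mt2 (-2.93 ± 0.69, FDR 0.0432) and E030018B13Rik (-3.05 ± 0.56, FDR 0.0133).

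Clock genes were called in both directions. Of 12 genes with a daytime peak 1 was higher (Per1) and 2 lower (Bhlhe41 and Per2), which is 25% against 5.25% of all members. Of the 12, 9 had a negative log2FC, with a median of -0.32 against -0.07 for all members. None of 5 night genes was called, and their median log2FC was 0.12. A shift of phase was not tested. Per1, which glucocorticoids also induce, rose from 2.24 ± 1.06 to 4.86 ± 1.77 FPKM (log2FC 1.13 ± 0.28 SE, FDR 0.00902), while Bhlhe41, a repressor of the clock, fell from 1.78, 1.8, 1.94, 1.26 and 2.09 FPKM to 0.712, 0.703, 0.649, 0.32 and 0.537 FPKM without overlap (log2FC -1.47 ± 0.19 SE, FDR 6.71e-05; interaction with diet 1.51 ± 0.27, FDR 0.0125). The core activator Arntl and the output gene Dbp did not pass (log2FC 0.51 and -0.64, FDR 0.188 and 0.223). Of 19 male-biased genes 5 were lower and none higher (26.3% called, against 5.25% of all members; median log2FC -0.29). Among the lower ones was the fatty acid hydroxylase gene Cyp4a12a (114 ± 13.5 against 52.5 ± 8.29 FPKM, log2FC -1.13 ± 0.24 SE, FDR 0.00415). Other members went the other way: 7 of the 19 had a positive log2FC. The summed level of the list was 8088 to 12116 FPKM in WT and 10678 to 12995 FPKM in livers labelled null. Gsta2, a glutathione transferase, was higher on the control diet (log2FC 0.82 ± 0.19 SE, FDR 0.00626) and lower on CDAHFD (-0.77, FDR 0.0464), the only gene called in opposite directions on the diets (interaction -1.59 ± 0.27, FDR 0.00817).

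Genes of the mitochondrial genome were lower in part. This small circular DNA encodes respiratory chain subunits, ribosomal RNAs and transfer RNAs on long transcripts that are cut at the transfer RNAs. Of 31 tested genes 22.6% were called, against 5.25% of all members. The 7 genes were lower (mt-Tg, mt-Tr, mt-Ti, mt-Nd3, mt-Tm, mt-Tq and mt-Ty), and 3 of these are neighbours: mt-Tg (chrM:9391-9458), mt-Nd3 (chrM:9459-9806) and mt-Tr (chrM:9808-9875). The count and the share include mt-Tg and mt-Tr, members through the WT libraries alone, whose difference is fixed by the filter. The glycine transfer RNA gene mt-Tg was at 9.48, 2.64, 5.78, 14.6 and 16.2 FPKM in WT and at 0 in all 5 livers labelled null, and the arginine transfer RNA gene mt-Tr at 8.85, 3.52, 8.26, 10.3 and 7.37 FPKM in WT and at 0 in all 5 livers labelled null. The study's libraries were made from poly(A) RNA with inserts longer than these 68-base genes, so the values do not measure mature transfer RNA. Which longer transcripts gave the fragments was not tested. Set against a floor of 3 fragments per library, WT livers were at least 4.28-fold higher for mt-Tg and at least 3.36-fold higher for mt-Tr, on 3 to 22 and 4 to 14 fragments per WT library. Their sequences (GENCODE M21 transcripts) are given with the anticodon in capitals, since they flank mt-Nd3 on both sides.
mt-Tg: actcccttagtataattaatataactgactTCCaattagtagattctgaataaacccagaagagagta
mt-Tr: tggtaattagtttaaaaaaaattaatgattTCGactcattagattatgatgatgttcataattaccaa

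mt-Nd3, a subunit of respiratory complex I, was at 28, 23.2, 27.4, 40.2 and 33.8 FPKM in WT and 4.04, 4.81, 4, 7.55 and 5.4 FPKM in livers labelled TSP-1 null. The groups were far apart, on 135 to 240 against 26 to 42 fragments, and the log2FC was -2.56 ± 0.21 SE, FDR 1.54e-07. The same 3 genes were lower on CDAHFD (mt-Nd3 -2.44, FDR 3.8e-07), with no interaction past the threshold (FDR 0.893 for mt-Nd3). Other subunits of complex I encoded by the same genome did not pass: mt-Nd1 was at 3764 ± 486 and 3575 ± 577 FPKM (FDR 0.743), mt-Nd2 had a log2FC of -0.19 (FDR 0.461) and mt-Nd4 of -0.26 (FDR 0.314). The level of mt-Nd3 was thus far below that of mt-Nd1 in both groups, and the treatment of fragments with several matches is not given. Whether fragments of mt-Nd3 were assigned elsewhere was not tested, so mt-Nd3 is uncertain as a single gene. Under the limit given above for transfer RNA genes, mt-Tm and mt-Ty, outside this stretch, had log2FC values of -2.13 and -0.97 (FDR 0.00553 and 0.0125). For mt-Ti and mt-Tq, which overlap on opposite strands, they were -3.18 and -1.99, and these 2 calls were lost without several single libraries (mt-Ti without NDWT3, NDWT4, NDWT5, NDKO2 or NDKO3, mt-Tq without any but NDWT1 and NDKO2, FDR 0.0567 to 0.119).

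Pooled over 30 Mb on either side of Thbs1 on chromosome 2, and leaving Thbs1 itself out, 32 of 281 tested genes were DEGs (11.4%), 9 higher and 23 lower, against 32 of 651 (4.92%) on the rest of the chromosome and 571 of 11184 (5.11%) on other chromosomes. By windows of 10 Mb the share was uneven, from 2.13% of 47 genes (20 to 30 Mb upstream) to 17.6% of 34 genes (10 to 20 Mb upstream) inside this stretch and up to 15.8% of 19 genes outside it. These are counts of neighbouring genes, which are not independent, and were not tested. Chp1, a calcineurin B homologous protein whose start is 1.44 Mb from that of Thbs1, was at 161, 170.0, 152, 169 and 165 FPKM in WT and 64.2, 66.1, 69.7, 68.3 and 56.2 FPKM in livers labelled null, with the groups far apart (log2FC -1.33 ± 0.07 SE, FDR 7.71e-10). Sord, the sorbitol dehydrogenase of the polyol pathway (chr2:122234749-122265340), was at 615, 706, 547, 583 and 660.3 FPKM in WT and 238, 278, 234, 231 and 313 FPKM in livers labelled null. Again the groups were far apart (log2FC -1.27 ± 0.09 SE, FDR 2.48e-08). The complement regulator Cd59a fell from 31.8 ± 1.95 to 12 ± 0.82 FPKM (log2FC -1.40 ± 0.09 SE, FDR 5.44e-09) and its neighbour Cd59b from 1.61 ± 0.237 to 0.332 ± 0.197 FPKM (log2FC -2.10 ± 0.27 SE, FDR 7.4e-05). Rin2, 4930402H24Rik and Slc1a2, the glutamate transporter of pericentral hepatocytes, had log2FC values of -0.65, -0.88 and -1.31 (FDR 1.94e-05, 1.94e-05 and 6.51e-05). Gm14022, a noncoding transcript in this interval, rose from 0.103 ± 0.0789 to 1.12 ± 0.242 FPKM, at least 4.82-fold against the floor of 3 fragments per library. It is counted among the DEGs of the interval although its difference is fixed by the filter. On another chromosome, the insulin-degrading enzyme gene Ide (chromosome 19), one of the substrain checks, was at 27.2, 27.7, 32.4, 31.3 and 30.2 FPKM in WT and 10.9, 13.5, 12.3, 13.3 and 12.2 FPKM in livers labelled null, also without overlap (log2FC -1.25 ± 0.08 SE, FDR 1.85e-09).

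Both Eif3j2 and Pcna-ps2, among the higher genes, are copies of lower genes in that interval. Eif3j1, a translation initiation factor subunit on chromosome 2 that overlaps the lower Spg11 (log2FC -1.08, FDR 1.31e-05) on the opposite strand, was at 9.37, 7.89, 9.89, 9.87 and 10.1 FPKM in WT and 4.58, 4.45, 5.13, 5.45 and 4.08 FPKM in livers labelled null (log2FC -0.98 ± 0.10 SE, FDR 3.64e-06). Its copy Eif3j2 on chromosome 18, 94.0% of whose 31-base words occur in Eif3j1, was at 0.408, 0.372, 0.464, 0.506 and 0.808 FPKM in WT and 7.95, 7.51, 7.58, 9.26 and 6.48 FPKM in livers labelled null (log2FC 3.71 ± 0.17 SE, FDR 4.24e-11). The copy held 2.18 ± 0.594% of the fragments of the pair in WT livers and 40.4 ± 1.56% in livers labelled null, whereas the sum of both was 56.1 ± 5.44 and 46.4 ± 5.41 CPM of recovered fragments. Next to the copy, the pseudogene Gm3650 rose from 0.0266 ± 0.0369 to 2.56 ± 0.856 FPKM, at least 11.9-fold against the floor. In the same way Pcna, the replication clamp on chromosome 2, went from 8.62 ± 0.63 to 5.48 ± 0.172 FPKM (log2FC -0.64 ± 0.07 SE, FDR 2.93e-05) while its pseudogene Pcna-ps2 on chromosome 19 went from 0.111 ± 0.109 to 1.93 ± 0.396 FPKM (log2FC 3.39, a description, since it is a member through the livers labelled null alone). The pseudogene held 0.637 ± 0.575% of the fragments of the pair in WT and 15.5 ± 3.09% in livers labelled null, and their sum fell from 20.8 ± 1.64 to 15.6 ± 0.225 CPM. How the shared sequence divided fragments between a gene and its copy was not tested, so Eif3j1, Eif3j2, Pcna and Pcna-ps2 are uncertain as single genes. Other features at the ends of the ranking were short noncoding RNAs of low value that mostly lie inside other genes: n-R5s96, Gm26049 and Gm22573 among the lower, and Gm25206, mmu-mir-6993, Gm25501 and Gm22581 among the higher ones. The call of mmu-mir-6993 was lost when 1 library was left out (any but NDWT3, NDWT5 and NDKO4, FDR 0.0615 to 0.0791). Gm26049 is a member through the WT libraries alone, so its call is a description. That call was also lost without NDWT5, NDKO1, NDKO2 or NDKO4.

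**Figure D5:**
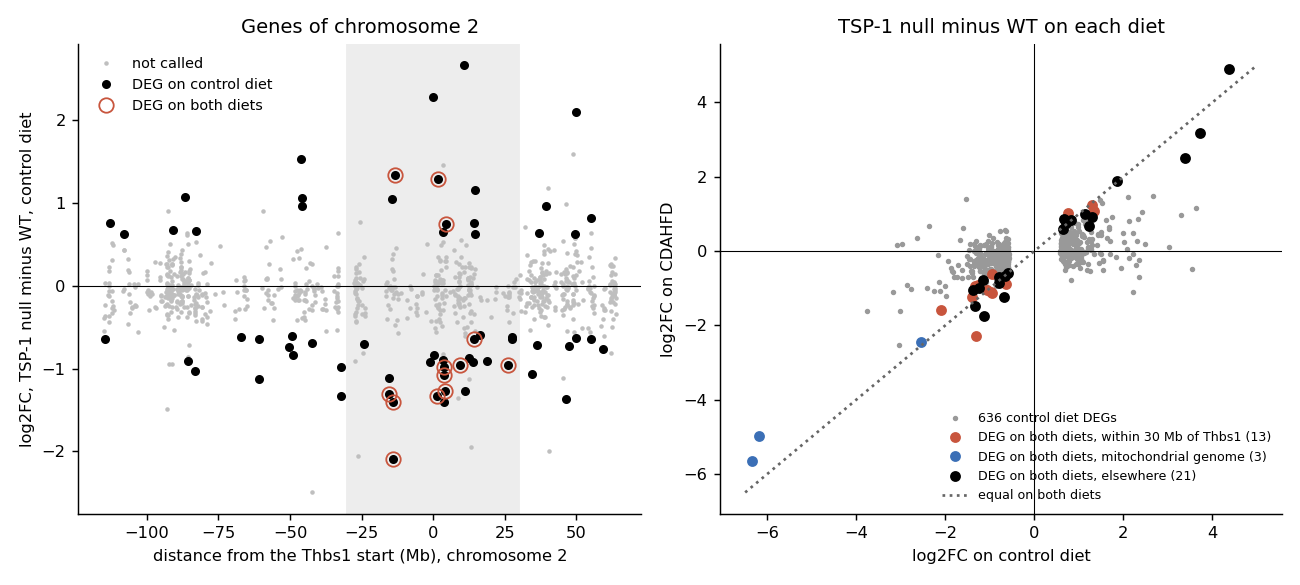
Left, log2FC on the control diet of the tested genes of chromosome 2 (vertical) against their distance from the Thbs1 start in Mb (horizontal), with DEGs on the control diet in black, genes called on both diets ringed in red and the 30 Mb on either side shaded. Right, log2FC on CDAHFD (vertical) against log2FC on the control diet (horizontal) for the 636 DEGs, with the 37 genes called in the same direction on both diets enlarged (red 13 within 30 Mb of Thbs1, blue 3 mitochondrial, black 21 elsewhere) and a dotted line of equality.

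Set beside the same comparison on CDAHFD, which used other mice of both genotypes, few of the control diet DEGs were called again. Of the 12117 genes 69 (0.569%) were genotype DEGs on CDAHFD, and 37 genes were called in the same direction on both diets, which is 5.82% of the control diet DEGs and 53.6% of those on CDAHFD. Of these 37, 13 lay within 30 Mb of Thbs1, 3 were the mitochondrial genes mt-Tg, mt-Nd3 and mt-Tr, and the rest, 21, included Ide, Eif3j2, Gm3650, Pcna-ps2, Lpin1, Cyp8b1 and Cyp4a12a. Among the 37, mt-Tg, mt-Tr, Gm3650 and Pcna-ps2 are members through 1 group alone, so the filter fixed their control diet difference. The log2FC on CDAHFD had the same sign for 155 of the 237 higher DEGs (65.4%, median 0.90 on the control diet and 0.13 on CDAHFD) and for 335 of the 399 lower ones (84.0%, median -0.80 and -0.22), where 30.1% of all members had a positive and 69.9% a negative value on CDAHFD. The interaction passed both thresholds for 122 genes (1.01%), 76 of them control diet DEGs (37 of the higher and 39 of the lower), and in 37 of the higher and 38 of the lower ones the genotype effect was smaller or opposite on CDAHFD. These genes were chosen by their control diet log2FC, which the interaction subtracts, so that choice itself favours a smaller effect on CDAHFD. The smaller medians on CDAHFD given above carry the same bias. The number of control diet DEGs with such an interaction was 32 without NDKO1, 38 without NDKO4, 39 without NDWT3, 40 without NDWT5 and 122 without NDKO2. Fabp1 was one of them (interaction 1.17 ± 0.23, FDR 0.0214).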

How the data were processed

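Livers of 20 male mice, 5 per genotype and diet, were sequenced as poly(A) RNA, and the 10 on the control diet form the comparison. The authors deposited FPKM per gene, with a gene length column, 1 column per mouse. Their processing notes name STAR 2.5.2 and featureCounts (Subread 1.5.1) and the build GRCh38, whereas the identifiers and coordinates in the table are mouse on GRCm38, and the methods name the QuickRNASeq pipeline. Whether counting used strand, and how fragments with several matches were treated, is not given in the sources used here. FPKM times length gave whole fragments in 100% of the values that could be checked and totals of 15984261 to 23276322 fragments per control diet library, so that a level of 3 fragments or fewer was treated as the floor; such counts cover counting error only.

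The members were tested on log2(FPKM + 0.1), a scale that understates the change of low genes, with limma 3.58.1 (R 4.3.3; group means over all 20 libraries, empirical Bayes with trend, Benjamini-Hochberg FDR over all tested genes). A DEG had an FDR under 0.05 and an absolute log2FC above 0.58. Differences between diets were tested as the interaction of genotype and diet with the same thresholds, and single values with two-sided exact permutation tests. Libraries were grouped by their labels, and each is a separate mouse. Scripts ran in Python 3.11.15 (pandas 2.3.3, numpy 2.4.6, scipy 1.17.1, matplotlib 3.10.9), and the fit was tested on simulated data. In the text, values after ± are SD over 5 mice for levels and SE for log2FC, and values per mouse follow the replicate numbers.

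Named were Thbs1, genes the study discusses, the 12 DEGs with the largest rise and the 12 with the largest fall among those without overlap between groups, the 10 most abundant DEGs, up to 6 DEGs with the lowest FDR and up to 3 uncalled genes per list, the 8 DEGs with the lowest FDR within 30 Mb of Thbs1, and the sex and substrain checks, apart from a few genes that are not reported here. Members, lists and motifs were chosen with earlier results of these data known, so the lists carry no test and their counts stand beside those of all tested genes. Genes outside this rule, chosen after their values were seen, are mt-Tq, Hspa5, Sdf2l1, Creld2, Manf, Hyou1, Hsph1, Hsp90aa1, Xist and the uncalled or list members named only in counts. 15 kinds of alternative were planned (pseudocount, filter, scaling, libraries in the fit, variance model, weights on recovered fragments, fold threshold, replicate block, single libraries left out), and 2 were added after seeing the data (counts without the neighbourhood of Thbs1 and the mitochondrial genome, and overlap after rescaling). Promoter sequences came from RefSeq (GRCm38.p6), which held 27025 genes, and transfer RNA sequences from GENCODE M21.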

Additional observations from a re-analysis of the deposited data

Results flagged for a closer look

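Within 16 of 280 groups of 5 livers that were checked, 1 liver lay farther from the rest than the 95% critical value of Dixon's test (0.71), and chance flags about 1 group in 20. In WT livers the highest values that stood apart were those of Hspa5 (654.6 FPKM), Creld2 (129.0 FPKM), Hyou1 (67.5 FPKM), Pdia4 (234.8 FPKM), Sel1l (44.7 FPKM) and Derl3 (23.001 FPKM), all in NDWT3, so that the ER chaperone list was checked without this liver, where 16 of its genes were still lower DEGs. Others in WT were Xbp1 (105.2 FPKM, NDWT2), Pcna (9.74 FPKM, NDWT2), Cyr61 (10.7 FPKM, NDWT4), Cyp7a1 (24.1 FPKM, NDWT5) and Gm25206 (0.581 FPKM, NDWT1), and the lowest value of Cpt1a (203.9 FPKM, NDWT2). In libraries labelled TSP-1 null they were the highest values of mt-Tq (14.9 FPKM, NDKO2), n-R5s96 (0.399 FPKM, NDKO5) and Otc (71.5 FPKM, NDKO5), and the lowest of Hspa8 (190.7 FPKM, NDKO5).

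For 15 of the genes described, the genotype effect differed between the diets by the interaction test of limma (FDR under 0.05 and an absolute difference above 0.58). Given as the log2FC on CDAHFD minus that on the control diet, the difference was -2.665 for Thbs1, -3.05 for E030018B13Rik, -2.93 for Mt2, -2.06 for Cdkn1a, -1.77 for Got1, -1.28 for Asl, -0.61 for Hpd and -1.595 for Gsta2, all higher in livers labelled null on the control diet. Thbs1 was a member through those livers alone, so its difference is a description. Among genes lower on the control diet it was 3.27 for Hspa1b, 2.99 for Hspa1a, 1.51 for Bhlhe41, 1.17 for Fabp1, 0.70 for Dnaja1 and 0.66 for 4930402H24Rik. Slc1a2 alone of these lower genes had a larger effect on CDAHFD, with a difference of -0.98. The genes described were mostly named as control diet DEGs, a choice that favours a smaller effect on CDAHFD.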

How the results depend on the processing

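The number of DEGs was 405 with a pseudocount of 1 (163 higher, 242 lower) in place of 636, and 1915 genes passed the FDR without a fold threshold (505 higher, 1410 lower). Leaving out 1 library gave between 510 (without NDKO1) and 712 DEGs (without NDWT4). The 76 DEGs with an interaction became 29 without a filter and 33 with the replicate block, and ranged from 32 to 122 when 1 library was left out. No gene reported as called reversed under any alternative, but the majority of DEGs turned from lower to higher with both rescalings (305 higher and 286 lower, 297 and 272). Of 107 called genes reported, 81 were called under every setting, 26 lost the call under at least 1 setting and 13 of these without some 1 library, as given above. The others were Acta2, Ccnd2, E2f1, Itgb3 and Mcm2 (lost with a pseudocount of 1), Ahcy, Hpd and Pck1 (quantile normalization), Pcna and Rin2 (both of these settings and median of ratios), Acta2 and Per1 (the 10 control diet libraries alone), and Psmb9 and mt-Ty (replicate block). 3 of 33 uncalled genes gained a call under some setting. The split of higher and lower genes depended on scaling, as given above.

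The replicate block gave 581 DEGs (226 higher, 355 lower), and 6 reported genes lost their call with it (H2-Aa, H2-Eb1, Psmb9, Lyve1, mt-Tq and mt-Ty). Mice that share a replicate number share only the number: their deviations from the group means correlated at 0.02, 0.05, -0.14, 0.12 and 0.14 across genes, and only number 5 correlated best with itself. Among the lists, antigen presentation fell from 5 to 2 with the block, male-biased genes from 5 to 2 and heat shock genes from 11 to 7 with quantile normalization, and cell cycle genes from 8 to 0 with a pseudocount of 1, while ER chaperones kept a count of 16 to 18 and amino acid catabolism 13 to 17 under all settings. Genes near 0.5 FPKM and short RNAs rested on few fragments, and a difference there was often not detectable at this depth.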

Other observations

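Other lists were called to different extents, beside 5.25% of all members. ATF4 targets gave 3 higher and 2 lower of 13 tested (38.5%, median log2FC 0.01), and none of the higher calls remained without NDKO1. Immediate early genes were called in both directions, 2 higher and 3 lower of 15 (33.3%, median 0.18), and female-biased genes gave 2 higher of 7 tested (28.6%, median 0.32). Of 20 tested xenobiotic P450 genes 2 were higher and none lower (median log2FC 0.12), of 27 NRF2 targets and glutathione transferases 1 was higher and 1 lower (median -0.13), and of 38 complement and coagulation genes 3 were lower (median -0.04), 2 of them Cd59a and Cd59b from the neighbourhood of Thbs1. Among 28 acute phase genes 3 were higher and 1 lower (median -0.03), with Mt1 and Mt2 among the higher. Of 15 genes of the growth hormone and IGF axis 2 were higher (median 0.08), of 17 iron and BMP genes 1 was higher and 2 lower (median -0.08), and of 17 p53 targets 1 was higher, Cdkn1a, and 2 lower (median -0.17). Fatty acid synthesis genes gave 1 higher (Lpin1) and 1 lower (Pklr) of 19 tested (median -0.22). In the lists of this paragraph without a printed share, the share called ranged from 7.41% for NRF2 targets to 17.6% for p53 targets and for iron and BMP genes.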
